A study of Mus musculus with 48 samples.

Results

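The genes of 10 regulators of RNA splicing and RNA binding were followed in the mouse striatum, namely Ptbp1, Ptbp2, Ptbp3, Clk1, Clk2, Clk4, Msi1, Msi2, Qk and Rbfox1. They are 10 of the 24060 rows of the read-count table and were found there by symbol, and all 10 passed the filter on low counts in every comparison. The set was chosen by measured values of these libraries: Ptbp1 for its higher level with hM4Di, Clk1 for its higher level with MPTP in the precipitated RNA, and the others as related RNA-binding proteins and kinases. Values of the hM4Di contrast, and of the MPTP contrast in that fraction, are therefore given as a description with no p-value, as are the differences between fractions that contain them. Where a count past the threshold is printed for these contrasts, it describes the estimates and is not a test of the genes.

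All mice were labelled C57 and carried a RiboTag virus in the striatum for 3 weeks, which places a hemagglutinin-tagged ribosomal protein, Rpl22-HA, in astrocytes. From each homogenate, RNA was taken from the cleared lysate (input, all cells of the tissue) and from ribosomes precipitated by the tag (IP, RNA attached to the tagged ribosomes). The 3 experiments carry separate run names in their titles, each with 4 control and 4 perturbed replicates in both fractions, 48 libraries in all. In the first, adult mice received vehicle or 20 mg/kg MPTP in 4 doses, a toxin used against dopaminergic neurons; the labels speak of microinjection into the striatum. In the second, wild-type littermates were compared with SAPAP3 knockout mice, in which Dlgap3, the gene of a postsynaptic scaffold, is disrupted and which model obsessive-compulsive disorder. In the third, R6/2 mice, a transgenic model of Huntington's disease, received a virus with a control cargo or with hM4Di, an engineered Gi-coupled receptor. Mice of both groups of the third experiment carried the R6/2 transgene, and all mice were adult, with no age given. The labels do not give the promoter of the RiboTag or hM4Di virus, or whether and when an agonist of hM4Di was given. The condition and the experiment cannot be told apart where values of different experiments are set side by side.

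The polypyrimidine tract-binding proteins, encoded by Ptbp1, Ptbp2 and Ptbp3, bind pyrimidine-rich stretches near exons and often keep those exons out of the mRNA. PTBP1 is the form of non-neuronal cells and represses neuronal exons, one of them in the Ptbp2 transcript itself, whereas PTBP2 is the neuronal form. CLK1, CLK2 and CLK4 are nuclear kinases that phosphorylate the serine- and arginine-rich splicing factors, and an intron retained in the Clk1 and Clk4 transcripts is known to be spliced on demand. The Musashi proteins MSI1 and MSI2 bind mRNA of neural stem cells and glia, QKI binds the RNA of glial cells and governs splicing and stability there, and RBFOX1 is a neuronal splicing factor that recognises a short motif beside exons.

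In GENCODE M21 (GRCm38), Ptbp1 lies at chr10:79854427-79864771 on the plus strand, Clk1 at chr1:58410189-58424066 on the minus strand and Clk4 at chr11:51261730-51281766 on the plus strand. The others lie at chr3:119718742-119784466 (Ptbp2, minus), chr4:59471868-59549364 (Ptbp3, minus), chr3:89164795-89176921 (Clk2, plus), chr5:115429599-115455698 (Msi1, plus), chr11:88339382-88718513 (Msi2, minus), chr17:10202601-10319854 (Qk, minus) and chr16:5885355-7411526 (Rbfox1, plus). Promoter sequence from RefSeq (GRCm38.p6) matched 7 of the 10 genes. Clk1, Ptbp3 and Msi1 had no entry. Stretches of 2 promoters are shown, those of Ptbp1 and Clk4. Of the 10 genes, Ptbp1 had the largest difference between a perturbed group and its controls, and Clk4 varied with Clk1 from library to library. Each stretch ends at or just before the RefSeq start and was trimmed to bases outside protein-coding exons. Capitals mark an E-box (CACGTG) in Ptbp1 and a cAMP response element (TGACGTCA) in Clk4.
Ptbp1, chr10:79854182-79854426, plus strand: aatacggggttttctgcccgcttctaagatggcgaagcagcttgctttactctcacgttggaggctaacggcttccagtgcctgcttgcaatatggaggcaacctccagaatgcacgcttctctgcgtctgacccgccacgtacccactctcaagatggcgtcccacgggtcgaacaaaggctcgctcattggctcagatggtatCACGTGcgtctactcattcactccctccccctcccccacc
Clk4, chr11:51263047-51263113, plus strand: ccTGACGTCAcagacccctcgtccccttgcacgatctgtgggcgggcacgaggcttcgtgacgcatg
The Ptbp1 match begins 45 bases before the RefSeq start and the Clk4 match 65 bases before it. The 5 motifs below were searched on both strands of the 250 bases before each start, and the matches in these stretches did not overlap one another. The E-box CACGTG was held by 6.02% of all 32851 promoters in the table, the cAMP response element TGACGTCA by 1.55%, the AP-1 site TGANTCA by 6.75%, the GC box GGGCGG by 32.7% and the CArG box by 1.47%. Among the 7 genes, the E-box also matched in Clk2 and Msi2, the cAMP response element in Msi2, and the GC box in Ptbp2, Clk2, Clk4, Msi2 and Qk. No AP-1 site or CArG box matched in these windows. A match describes the letters only and is not evidence that a factor bound there. The Ptbp1 stretch lies within an exon of the non-coding gene E130317F20Rik on the opposite strand, and the Clk4 stretch lies within the annotated Clk4 gene, in no exon.

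The counted reads per library ranged from 34316801 to 61456591 in the 24 IP libraries and from 21901847 to 38983930 in the 24 input libraries. Levels are given as CPM, the counts divided by library size after TMM scaling over all 48 libraries, and levels of different genes are compared only on the deposited FPKM scale, which divides by gene length. The 10 astrocyte markers were all higher in IP than in input in each experiment, with median log2 differences of 2.66, 2.34 and 2.47, and the 8 microglial markers were all lower. Other cells' RNA remained in IP: the 8 oligodendrocyte markers summed to between 2793 and 11720 CPM in the IP libraries. Chrm4, the mouse gene for the receptor type from which hM4Di was engineered, stood at 48.8 ± 11.9 CPM (SD, n = 4) in control-cargo IP and at 763 ± 140 in hM4Di IP. Dlgap3 stood at 194.9 ± 26.5 CPM in wild-type IP and at 74.2 ± 18.4 in knockout IP; the labels do not give the deleted part, and no gene was available to check the MPTP label. Of the 6 input groups, wild type had the widest range in the summed level of medium spiny neuron markers, from 3185 to 5995 CPM.

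The genes differed widely in level. On the FPKM scale, Qk was the most abundant of the 10 in IP, with a median of 146 FPKM over 24 libraries, followed by Rbfox1 (47.3), Ptbp2 (43.6), Msi2 (43.3), Msi1 (14.2), Clk1 (13.9), Clk4 (13.4), Ptbp1 (11.7), Ptbp3 (6.61) and Clk2 (6.34). In input the order was Rbfox1 with 93.1 FPKM, Qk (74.7), Ptbp2 (42.6), Clk1 (32.5), Clk4 (25.8), Msi2 (22.9), Ptbp3 (12.3), Clk2 (9.70), Ptbp1 (9.06) and Msi1 (6.46). Over the libraries, ranges of neighbours overlapped in both orders except between Qk and Rbfox1, Msi2 and Msi1, and Ptbp1 and Ptbp3 in IP, and between Qk and Ptbp2, and Msi2 and Ptbp3 in input. Counts behind the values were lowest for Msi1 in input, at 147 to 444 reads per library, and highest for Qk in IP, at 49356 to 92013.

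**Figure D1:**
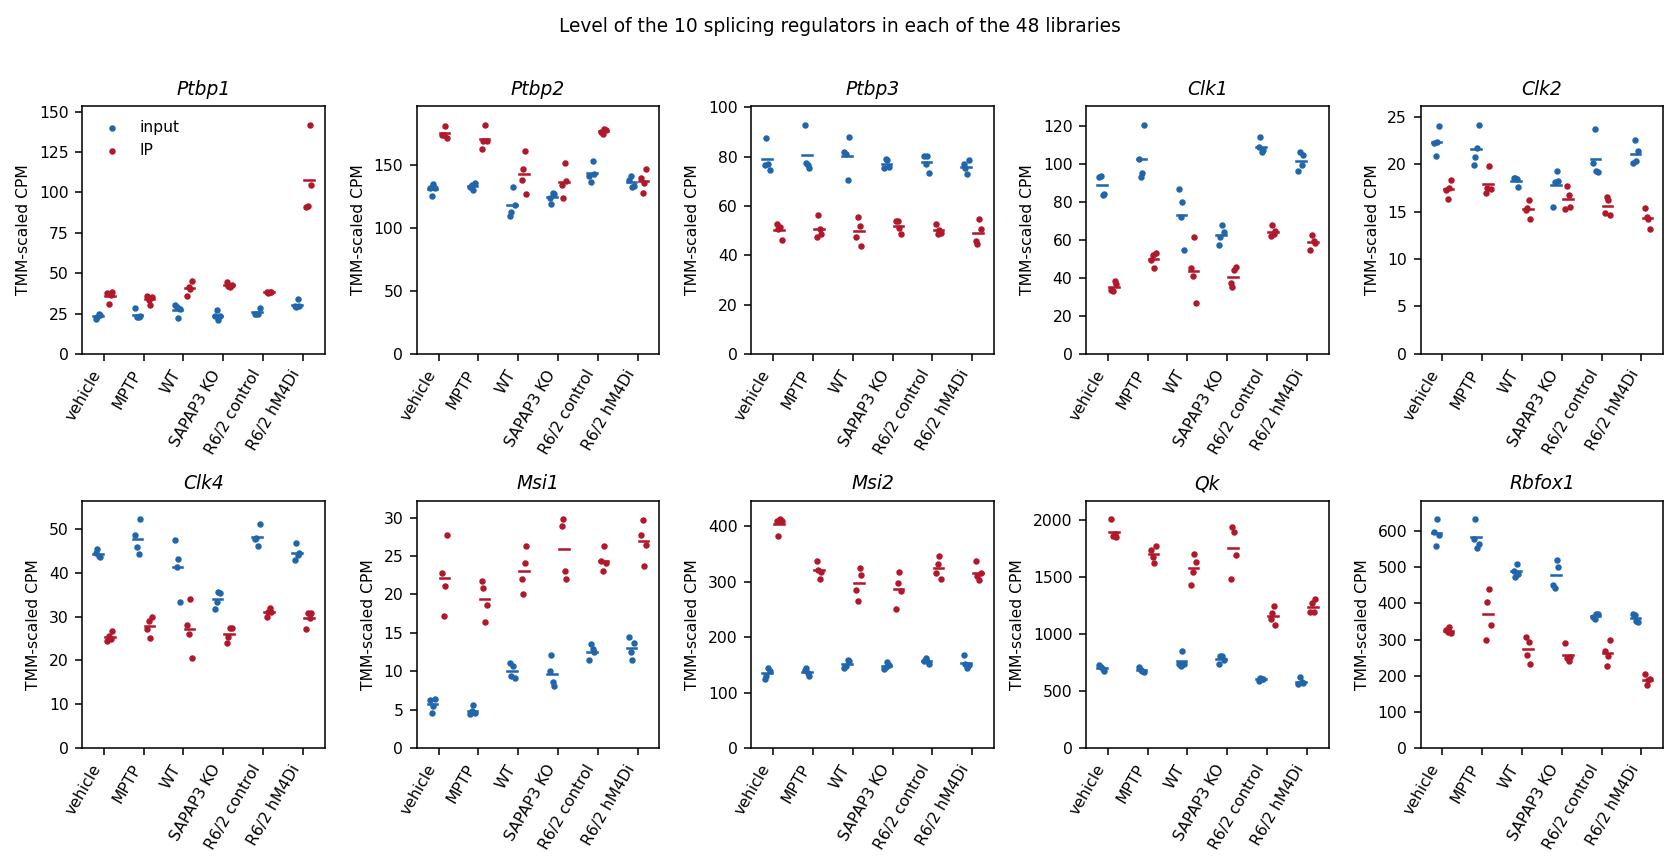
TMM-scaled CPM (vertical axes, from 0) of each of the 10 genes in the 48 libraries, by condition, with IP in red and input in blue; points are libraries and short bars are means of 4. Ptbp1 stands between 91.2 and 142 in the hM4Di IP libraries and at or below 45.2 in all the others, while Msi1, Msi2 and Qk lie higher in IP and Ptbp3, Clk1, Clk4 and Rbfox1 higher in input.

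Which of these mRNAs were more abundant in IP was asked by setting IP against input. That contrast did not enter the choice of the genes. However, its R6/2 value for Ptbp1 includes the hM4Di IP libraries that did. Its value for Clk1 in the MPTP experiment likewise includes the MPTP IP libraries that did. Over the control libraries alone, both genes also differed between IP and input (edgeR adjusted p = 6.04e-06 and 1.67e-09). Because RNA of other cells remained in IP, a higher level there does not place an mRNA in astrocytes alone. All 10 genes passed the test in each of the 3 experiments, beside 83.7, 80.2 and 80.3% of all genes tested in the MPTP, SAPAP3 and R6/2 experiments (edgeR quasi-likelihood test, Benjamini-Hochberg adjusted p under 0.05). In each, 5 were higher in IP, beside 40.7, 40.3 and 39.3% of all genes, and 5 lower, beside 42.9, 40 and 41.1%. A pass is thus no mark of these genes, and the sizes carry the result. More than 2-fold higher in IP at the same threshold were 3, 2 and 3 of the 10 genes, beside 12.5, 11.9 and 11.3% of all genes. Ptbp1 is one of the R6/2 genes and was below 2-fold over the control libraries alone, at a log2 difference of 0.57. More than 2-fold lower was Clk1 in the MPTP experiment only, beside 14, 13 and 12.3% of all genes. Over the vehicle libraries alone its log2 difference was -1.39.

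The Musashi genes and Qk had the highest IP-to-input differences in the MPTP and SAPAP3 experiments. Msi1 ranged from 16.4 to 27.7 CPM in the 8 IP libraries of the MPTP experiment and from 4.44 to 6.37 in input, a log2 difference of 1.91 ± 0.0962 (SE; adjusted p = 1.11e-12). The same difference was 1.31 ± 0.0947 in the SAPAP3 experiment (adjusted p = 8.73e-10) and 0.99 ± 0.0583 in the R6/2 experiment (adjusted p = 5.45e-11). No IP library overlapped an input library of its experiment for Msi1. Msi2 was higher in IP by 1.34 ± 0.0585, 0.95 ± 0.0522 and 1.04 ± 0.0333, with a largest adjusted p of 2.12e-11 by the edgeR test. Qk was higher by 1.32 ± 0.0374, 1.10 ± 0.0622 and 1.01 ± 0.0389, with a largest adjusted p of 3.24e-11. Each value was below the median of the astrocyte markers in its experiment.

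Within the PTB family, Ptbp1 and Ptbp3 differed from input in opposite directions. Ptbp1 was higher in IP by 0.48 ± 0.0614, 0.71 ± 0.0752 and 1.20 ± 0.176 on the log2 scale. The edgeR adjusted p was 7.16e-07 in the MPTP and 1.34e-07 in the SAPAP3 experiment. The R6/2 value is given without one, because it rests in part on the hM4Di libraries that chose the gene. Over the control libraries alone the 3 differences were 0.55, 0.51 and 0.57 (largest adjusted p of 0.00259, edgeR). Ptbp3 was lower in IP by a similar amount everywhere, -0.72 ± 0.0543, -0.64 ± 0.0530 and -0.64 ± 0.0396 (largest adjusted p of 5.09e-09, edgeR). Ptbp2, the neuronal form, was higher in IP by 0.33 ± 0.0284, 0.20 ± 0.0574 and 0.15 ± 0.0454. That small difference depended on scaling: with upper-quartile scaling, which moved the median of all genes by -0.137, -0.143 and -0.119, Ptbp2 stood at 0.06 and 0.03 in the SAPAP3 and R6/2 experiments and no longer passed, and with limma on log2(FPKM + 1) it stood at -0.02 and -0.09. The cause was not tested.

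The kinases and Rbfox1 were higher in input. Clk1 differed by -1.24 ± 0.0636, -0.69 ± 0.129 and -0.78 ± 0.0339, and Clk4 by -0.85 ± 0.0417, -0.50 ± 0.0898 and -0.62 ± 0.0356. For Clk1 the larger adjusted p of the SAPAP3 and R6/2 experiments was 9.69e-05 (edgeR). The MPTP value of Clk1 includes the MPTP IP libraries that chose it, and over the vehicle libraries alone it was -1.39. Clk2 had the smallest difference of the kinases, -0.38 ± 0.0474, -0.20 ± 0.0528 and -0.49 ± 0.0546 (largest adjusted p of 0.00258). Rbfox1 was lower in IP by -0.82 ± 0.0661, -0.87 ± 0.0601 and -0.71 ± 0.0720, and the R6/2 value was -0.48 ± 0.0721 over the control libraries alone. In the SAPAP3 experiment the IP and input libraries of the 3 Clk genes overlapped, and in the other 2 experiments they did not. Neuronal markers did not move as 1 group: all 9 medium spiny neuron genes fell in IP in each experiment, with medians of -0.87, -0.53 and -0.71, whereas of 8 pan-neuronal markers 5, 1 and 3 were higher and 3, 7 and 2 lower, with medians of 0.22, -0.35 and 0.02.

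**Figure D2:**
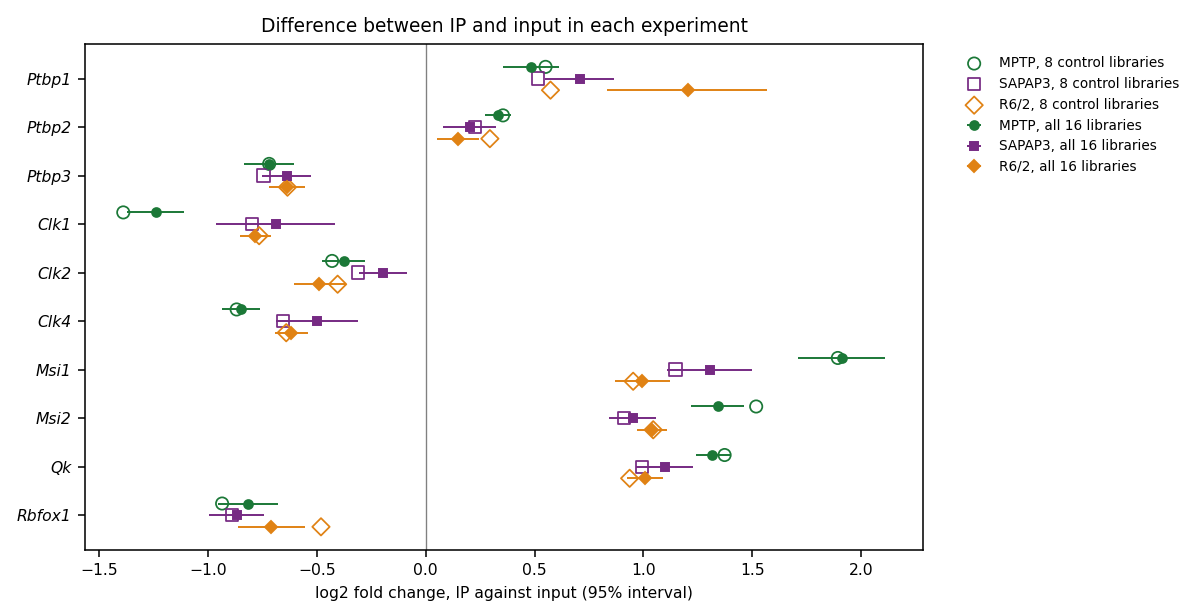
Log2 fold change between IP and input (horizontal axis) of the 10 genes in the 3 experiments; filled symbols are fits over 16 libraries with 95% intervals, open symbols fits over the 8 control libraries. Msi1, Msi2, Qk and Ptbp1 lie to the right of 0 and Ptbp3, the Clk genes and Rbfox1 to the left, and the R6/2 value of Ptbp1 falls from 1.20 to 0.57 without the hM4Di libraries.

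Related factors, from lists chosen with earlier results of these data known, were counted for the same contrast. Of 16 hnRNP proteins and PTB cofactors, which bind pre-mRNA beside PTB proteins, 12, 9 and 9 were higher in IP and 2 lower in each experiment, with medians of 0.35, 0.20 and 0.21 against medians near 0 over all genes. Raver2, a cofactor that binds PTBP1, was higher by 0.94, 0.87 and 1.01, and Hnrnpk by 0.47, 0.63 and 0.71. Hnrnpa1, which represses exons, was lower by -0.42, -0.84 and -0.98. Of 13 SR and TRA2 factors, the substrates of the CLK kinases, 1, 2 and 1 were higher and 8, 5 and 9 lower. Srsf12 was lower in IP by -0.96, -0.90 and -0.90, and Srsf9 by -0.75, -0.55 and -0.44. Of 6 other splicing kinases, 4 were lower in each experiment, among them Srpk3 (-1.22, -1.33 and -1.49) and Clk3 (-0.24, -0.24 and -0.25). A further list held regulators of the Rbfox, Nova, Elavl, Celf, Mbnl, Khdrbs and Srrm families, not all of them restricted to certain cell types. Of the 22, 22 and 21 tested, 6, 2 and 4 were higher and 13, 18 and 15 lower in IP, with medians of -0.27, -0.43 and -0.38. For comparison, 40.7, 40.3 and 39.3% of all genes were higher and 42.9, 40 and 41.1% lower. Celf3, a neuronal CELF protein, was lower by -1.20, -1.05 and -1.06, and Elavl2, a neuronal Hu protein, was higher by 1.26, 0.34 and 0.98. Mbnl3, a muscleblind protein, had the largest difference of the list in the SAPAP3 experiment, -1.94.

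With hM4Di in R6/2 mice, the largest difference among the 10 genes was in Ptbp1. In control-cargo IP it stood at 38.5, 37.8, 38.6 and 38.2 CPM in the 4 libraries, and in hM4Di IP at 91.2, 91.8, 142 and 104.7 CPM. Every hM4Di library lay above every control library, by a log2 difference of 1.51 ± 0.135 (SE), and replicate 3 was the highest of the 4. In input, the same mice gave 24.8, 25.0, 24.7 and 28.2 CPM with control cargo and 29.5, 28.8, 33.8 and 29.8 CPM with hM4Di. The input groups did not overlap either, with a smaller log2 difference of 0.26 ± 0.0688. The IP difference exceeded the input difference by 1.24 ± 0.158 on the log2 scale.

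Ptbp2 and Rbfox1 went the other way in IP. Ptbp2 stood at 176.5, 174.7, 178.8 and 178.0 CPM with control cargo and at 139.9, 128.3, 135.9 and 147.0 CPM with hM4Di, a log2 difference of -0.34 ± 0.0428. The groups did not overlap, whereas in input they did, with a difference of -0.07 ± 0.0404. Rbfox1 stood at 268, 228, 255 and 299 CPM with control cargo and at 204, 175, 188 and 190 CPM with hM4Di, a log2 difference of -0.45 ± 0.0809, again without overlap. In input Rbfox1 differed by -0.01 ± 0.0320. The hM4Di difference in IP minus that in input was -0.28 ± 0.0579 for Ptbp2 and -0.45 ± 0.0914 for Rbfox1.

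By these estimates, 3 of the 10 genes lay past the threshold in hM4Di IP, 1 higher and 2 lower, beside 14.7% of all genes tested (9.06% higher and 5.63% lower), and the same 3 did not overlap between groups, beside 23.5% of all genes. The contrast chose the list, so nothing is read from that share. The other genes had log2 differences from -0.11 (Clk1) to 0.16 (Msi1). In input no gene of the 10 lay past it in edgeR, DESeq2 or limma, beside 0.0198% of all genes, and 2 (Ptbp1 and Clk1) had an unadjusted p under 0.05, beside 7.67% of all genes. These 2 did not overlap between the input groups, beside 4.73% of all genes, although Clk1 differed by only -0.09 ± 0.0415. The difference between fractions contains the contrast that chose the list, so it too is a description: the same 3 genes lay past the threshold, beside 3.1% of all genes, and nothing is read from that share. This was no longer so for Ptbp2 and Rbfox1 without control-cargo replicate 1 or hM4Di replicate 2, and for Rbfox1 without hM4Di replicate 4. With the animal as a replicate block, the genes called went from 492 to 2761, and 3 of the 10 lay past the threshold.

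On the per-length scale, the ratio of Ptbp1 to Ptbp2 was 0.236, 0.234, 0.234 and 0.233 in control-cargo IP and 0.706, 0.775, 1.13 and 0.771 in hM4Di IP. In the other IP groups it lay between 0.181 and 0.385, and in hM4Di input between 0.220 and 0.275. The hM4Di IP libraries thus stood alone, and in replicate 3 Ptbp1 exceeded Ptbp2. The ratio of Ptbp1 to Ptbp3 was 1.70 ± 0.0526 in control-cargo IP and 4.82 ± 0.616 in hM4Di IP (SD, n = 4).

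**Figure D3:**
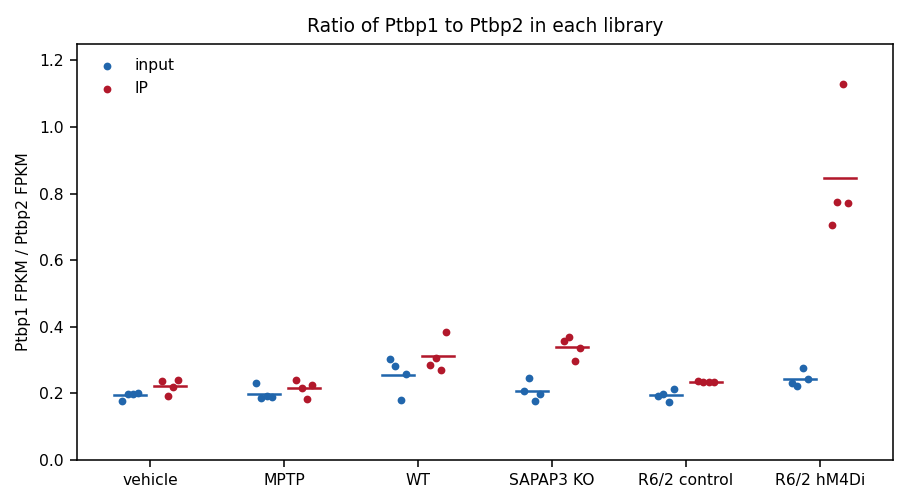
Ratio of Ptbp1 FPKM to Ptbp2 FPKM (vertical axis, from 0) in each of the 48 libraries by condition, with IP in red and input in blue; points are libraries and short bars are means of 4. The 4 hM4Di IP libraries lie between 0.706 and 1.13, above all the others, which reach at most 0.385.

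Markers of other cells moved in the same IP libraries. The medium spiny neuron list had lower estimates in 9 of 9 genes, 6 of them past the threshold, with a median of -0.51 and a summed level of 1445 to 2226 CPM with control cargo and 1187 to 1252 CPM with hM4Di. Pan-neuronal markers had lower estimates in 8 of 8, 3 past the threshold, with a median of -0.23 and sums of 3759 to 4110 and 3103 to 3502 CPM. Oligodendrocyte markers were higher in 8 of 8, all past the threshold, with a median of 0.84 and sums of 2793 to 3939 and 5005 to 7181 CPM. Of 10 astrocyte markers 1 (Gfap) was higher and 2 lower past the threshold, and they summed to 19680 to 22610 CPM with control cargo and 16170 to 17400 CPM with hM4Di. Microglial markers had estimates above 0 in 8 of 8, none past the threshold, with sums of 11.2 to 15.5 and 12.8 to 18.9 CPM. Of 6 oligodendrocyte precursor markers 2 were higher and 1 lower, and of 8 endothelial and mural cell markers 1 was lower. None of the markers had a group mean of 0, and Cdh5, an endothelial gene, was lowest, with 0.316 CPM in the control group. In input of the same mice, no marker of these lists lay past the threshold. Medians there were 0.04 for medium spiny neuron, -0.03 for pan-neuronal and -0.02 for oligodendrocyte markers. They were -0.08 for astrocyte, 0.33 for microglial, 0.06 for precursor and 0.14 for endothelial and mural cell markers. The IP values describe the precipitated RNA and not the whole tissue. In bulk RNA, fewer cells of a type and less RNA per cell cannot be told apart. The part of these markers in the differences of Ptbp1, Ptbp2 and Rbfox1 was not tested.

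The non-coding gene E130317F20Rik overlaps the start of Ptbp1 on the opposite strand, and the strand setting of the counting is not given in the sources used here, so its reads and those of Ptbp1 cannot be told apart with certainty. It stood at 7.20 ± 0.689 CPM in control-cargo IP and 8.38 ± 1.10 CPM in hM4Di IP (SD, n = 4), with overlapping groups. Plppr3, which also overlaps Ptbp1 on the opposite strand, is not analysed here. BC049762, opposite Clk4, had 1 to 15 reads per library where Clk4 had 857 to 1825. Transcripts of Clk1, Clk2 and Clk4 shared no stretch of 50 bases with each other in GENCODE, nor did those of Ptbp1, Ptbp2 and Ptbp3 or of Msi1 and Msi2.

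Among the related lists in hM4Di IP, no gene rose past the threshold and 5 fell past it, beside 9.06% of all genes higher and 5.63% lower. These counts describe the estimates and are not a test. Of 6 other splicing kinases 1 fell, Srpk2, which phosphorylates SR proteins, with a log2 difference of -0.13 ± 0.0349 (SE). Of 16 hnRNP proteins and cofactors, Hnrnpd (-0.23) and Matr3 (-0.24), a nuclear matrix protein that acts with PTBP1, fell. Of the 21 regulators tested from the further list, Celf1 (-0.20) and Celf2 (-0.30) fell, and none of the 13 SR and TRA2 factors lay past the threshold. The medians of the 4 lists were -0.09, -0.09, -0.17 and 0.04, against 0.01 over all genes.

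The genes whose log2 CPM went most closely with Ptbp1 over the 24 IP libraries, after the mean of each experiment was removed, were Gem (r = 0.969), Stk40 (0.962), Iffo2 (0.960), Emd (0.958) and Mob3a (0.958). A mean log2 CPM of at least 3 was held by 10672 genes. Those without a descriptive symbol or with a hyphen in it were left out of the ranking. The likeness rested on the hM4Di group: over the other 20 IP libraries, r was 0.455, 0.482, 0.332, 0.0186 and 0.531. Gem, a small GTP-binding protein, stood at 5.74 ± 0.577 CPM with control cargo and 69.0 ± 16.3 CPM with hM4Di, and Emd, the nuclear envelope protein emerin, at 29.3 ± 3.34 and 103.7 ± 36.4 CPM (SD, n = 4). The libraries share the RiboTag virus, a depth range and, within each experiment, the run name, so the coefficients describe these libraries only.

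With MPTP, Clk1 and Msi2 differed most in IP, in opposite directions. Clk1 stood at 33.8, 33.2, 38.2 and 36.7 CPM in the vehicle libraries and at 49.2, 52.1, 45.4 and 53.2 CPM in the MPTP libraries, a log2 difference of 0.51 ± 0.0687 (SE). Every MPTP library lay above every vehicle library. Msi2 stood at 409.6, 382.9, 412.8 and 408.5 CPM with vehicle and at 338.0, 321.5, 304.7 and 318.2 CPM with MPTP, a log2 difference of -0.32 ± 0.0498, also without overlap. Qk ranged from 1850 to 2012 CPM with vehicle and from 1625 to 1774 CPM with MPTP, a smaller log2 difference of -0.15 ± 0.0530 in which the groups again stayed apart. By this measure 3 of the 10 genes did not overlap, beside 6.94% of all genes, and nothing is read from it because the contrast chose the list.

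The other genes had estimates from -0.18 ± 0.140 (Msi1) to 0.20 ± 0.105 (Rbfox1). Rbfox1 ranged from 317 to 336 CPM with vehicle and from 299 to 441 CPM with MPTP, so that its MPTP libraries were the more widely spread. None of the 10 genes lay past the threshold in edgeR, beside 0% of all genes, and 3 had an unadjusted p under 0.05, beside 11.2% of all genes. With DESeq2, Clk1 and Msi2 lay past it, and with edgeR the same 2 did so without vehicle replicate 2, the library in which Msi2 was lowest among the vehicle group. In the same libraries 9 of 10 astrocyte markers had lower estimates with MPTP, none past the threshold, with a median of -0.24 and sums of 25770 to 33670 CPM with vehicle and 24260 to 28340 CPM with MPTP. Microglial markers had higher estimates in 8 of 8, none past the threshold, with a median of 0.32 and sums of 24.3 to 29.2 and 30.3 to 36.7 CPM, and oligodendrocyte markers in 8 of 8, with a median of 0.23. Oligodendrocyte precursor markers had lower estimates in 5 of 6, with a median of -0.19 and sums of 422.3 to 446.3 and 330.7 to 422.1 CPM. Medium spiny neuron markers had higher estimates in 8 of 9, with a median of 0.08 and sums of 3293 to 3540 and 2730 to 4628 CPM, and pan-neuronal markers in 7 of 8, with a median of 0.11 and sums of 3992 to 4447 and 4349 to 4555 CPM. None of the markers in these lists passed the threshold. An unadjusted edgeR p under 0.05 was held by 6 of 10 astrocyte, 4 of 8 microglial, 3 of 6 precursor and 0 of 8 oligodendrocyte markers. It was also held by 1 of 9 medium spiny neuron, 1 of 8 pan-neuronal and 2 of 8 endothelial and mural cell markers, beside 11.2% of all genes. The part of these markers in the differences of Clk1, Msi2 and Qk was not tested. No gene of the related lists passed in MPTP IP in edgeR: 0 of 6 other splicing kinases, 13 SR and TRA2 factors, 16 hnRNP proteins and cofactors and 21 regulators of the further list. Of these 4 lists, 0, 4, 2 and 5 genes had an unadjusted p under 0.05. Their medians were 0.05, 0.06, 0.05 and 0.05.

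Input RNA of the MPTP experiment was not used to choose the genes and was tested. Clk1 stood at 93.2, 93.9, 83.8 and 84.2 CPM with vehicle and at 102.4, 92.9, 95.4 and 120.7 CPM with MPTP. The groups overlapped, and the log2 difference of 0.22 (95% interval 0.0542 to 0.392) did not pass the test (edgeR adjusted p = 0.535). Clk4 differed by 0.12 (interval -0.000184 to 0.234, edgeR adjusted p = 0.603), and Msi2 by 0.05 (interval -0.0700 to 0.163). The interval of Msi2 does not include a decrease of the size seen in IP. No gene of the 10 passed in edgeR, DESeq2 or limma, beside 0% of all genes, and 1 (Clk1) had an unadjusted p under 0.05, beside 8.26% of all genes. In none of the 10 did the groups stay apart, beside 4.33% of all genes. The IP difference minus the input difference was 0.27 ± 0.111 for Clk1 and -0.38 ± 0.0738 for Msi2, given as a description since the IP contrast enters both; none of the 10 lay past the threshold in edgeR, beside 0% of all genes, and Msi2 did with DESeq2. The libraries labelled MPTP replicate 2 carried different animal names in IP and input.

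**Figure D4:**
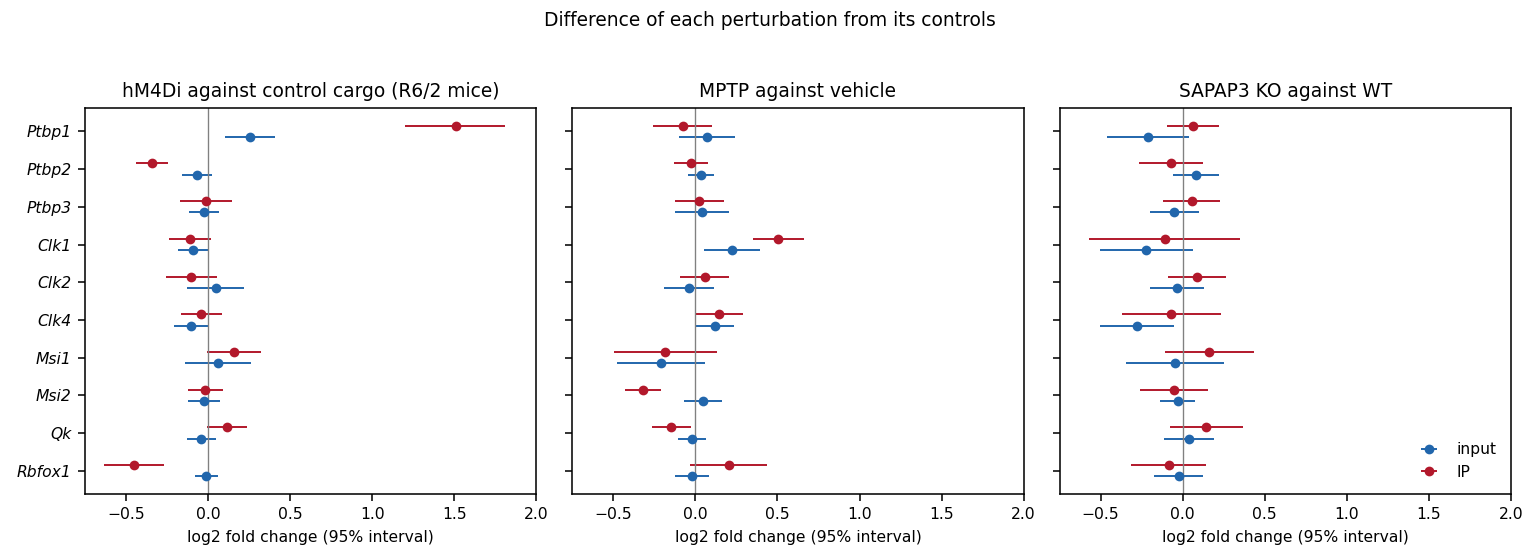
Log2 fold change of hM4Di, MPTP and SAPAP3 knockout against their controls (horizontal axes, 95% intervals) for the 10 genes, with IP in red and input in blue, 4 libraries against 4 each. Ptbp1 lies at 1.51 in hM4Di IP and 0.26 in hM4Di input, Clk1 at 0.51 and Msi2 at -0.32 in MPTP IP, and all 10 intervals of the SAPAP3 IP contrast include 0.

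In the SAPAP3 knockout no gene of the 10 passed in either fraction, and this contrast was not used to choose them. In IP the log2 differences ran from -0.11 (Clk1) to 0.16 (Msi1), all with an edgeR adjusted p of 0.999, beside 0.0263% of all genes called. None of the 10 had an unadjusted p under 0.05, beside 2.63% of all genes, none stayed apart between groups, beside 1.6%, and DESeq2 and limma called none. In input they ran from -0.28 (Clk4) to 0.08 (Ptbp2), beside 0.00641% of all genes called by edgeR, and DESeq2 and limma called none of the 10. Clk4 alone had an unadjusted p under 0.05, beside 5.57% of all genes, and no gene of the 10 stayed apart between groups, beside 3.93%. Clk4 stood at 47.5, 41.3, 43.1 and 33.3 CPM in wild-type input and at 31.8, 33.2, 35.6 and 35.3 CPM in knockout input, an interval of -0.503 to -0.0529 (edgeR adjusted p = 0.735). The groups overlapped through wild-type replicate 4. Differences between fractions ran from -0.15 (Ptbp2) to 0.28 (Ptbp1) and did not pass (edgeR adjusted p = 1), with 0% of all genes called.

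The wild-type libraries of this experiment were spread more widely than the knockout libraries in Clk1. It stood at 45.3, 41.0, 61.7 and 27.0 CPM in wild-type IP and at 37.5, 35.5, 43.9 and 45.8 CPM in knockout IP, so that the knockout libraries lay within the wild-type range. The interval of its difference, -0.569 to 0.348, includes a change of the size seen for Clk1 in MPTP IP in the downward direction only. For Ptbp1 the interval was -0.0960 to 0.223 in IP, which does not include a change of the size seen with hM4Di. All 9 medium spiny neuron markers had lower estimates in the knockout in both fractions, with medians of -0.30 in IP and -0.32 in input, none past the threshold. The related lists held no gene that passed in edgeR in either fraction of this experiment or in MPTP or hM4Di input. In SAPAP3 IP, 0, 2, 0 and 1 of the 6 kinases, 13 SR and TRA2 factors, 16 hnRNP proteins and 21 regulators of the further list had an unadjusted p under 0.05. In SAPAP3 input the counts were 1, 3, 2 and 2, with 22 regulators tested, beside 5.57% of all genes. In MPTP input they were 1, 3, 2 and 8, also with 22 regulators, beside 8.26% of all genes. In hM4Di input they were 0, 1, 3 and 1, with 21 regulators, beside 7.67% of all genes.

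Clk1 and Clk4 rose and fell together from library to library. After the mean of each experiment was removed, Pearson's r between their log2 CPM was 0.899 over the 24 IP libraries (Spearman's rho 0.843) and 0.913 over the 24 input libraries (rho 0.919). Without the 2 libraries farthest from the median, r was 0.788 in IP and 0.871 in input. Clk4 was the most like Clk1 in input, of 10671 genes ranked. It was also the most like Clk1 in IP, where gene models without a descriptive symbol and symbols with a hyphen were skipped. Within single experiments r ranged from 0.755 to 0.984 over 8 libraries, the lowest in R6/2 input, and in R6/2 IP the value of 0.767 fell to 0.399 without its 2 farthest libraries. For Clk2, r to Clk1 was 0.270 in IP and 0.329 in input. Next in likeness to Clk1 in IP were Arglu1, an SR-like splicing and transcription cofactor (r = 0.815), Senp7, a SUMO protease (0.798), Atrx, a chromatin remodeller (0.796), and Paxbp1 (0.795). In input these had r of 0.617, 0.650, 0.362 and 0.690. These coefficients describe libraries that share runs, depths and, between fractions, animals.

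**Figure D5:**
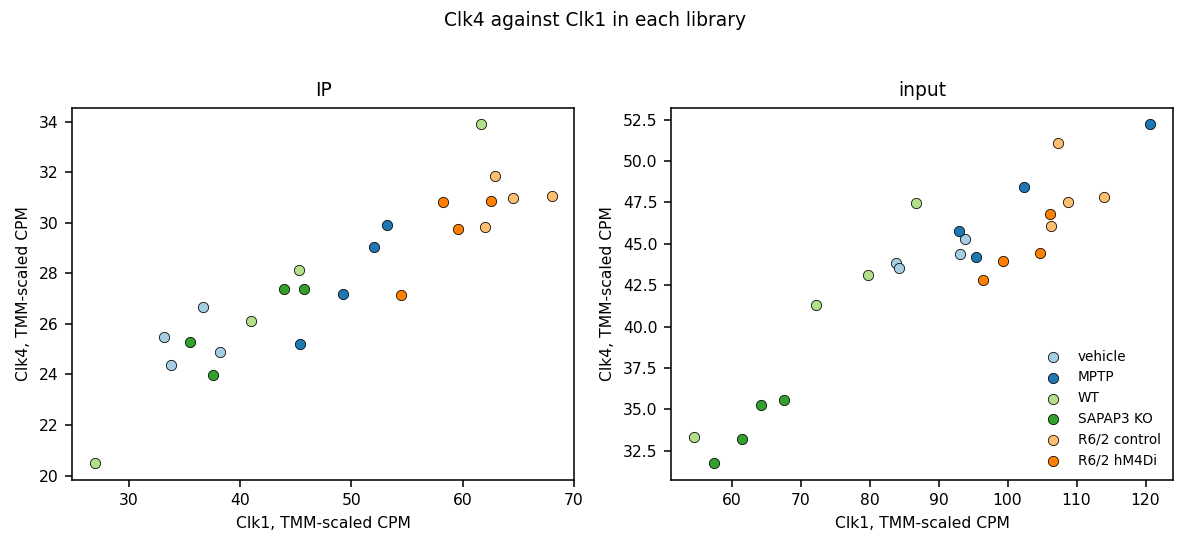
Clk4 against Clk1, both in TMM-scaled CPM, in the 24 IP libraries (left) and the 24 input libraries (right), coloured by condition; axes do not start at 0. In IP, wild-type replicate 4 is lowest in both genes, at 27.0 for Clk1 and 20.5 for Clk4. The R6/2 control libraries lie at 61.99 to 68.01 for Clk1, while wild-type replicate 3 is highest for Clk4, at 33.89. The plotted values are not centred by experiment, unlike those behind the coefficients.

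Across the 3 control groups, levels differed between experiments for several of the 10 genes. Clk1 in IP was 35.5 ± 2.36 CPM with vehicle, 43.7 ± 14.3 CPM in wild type and 64.4 ± 2.66 CPM in R6/2 mice with control cargo (SD, n = 4), and the R6/2 group lay above the other two without overlap in both fractions. Qk was lowest in the R6/2 group, at 1162 ± 74.2 CPM in IP against 1901 ± 75.2 CPM with vehicle and 1579 ± 115 CPM in wild type, also without overlap. Rbfox1 in input was 594 ± 30.2, 488 ± 15.8 and 365 ± 6.39 CPM, and Msi1 in input 5.71 ± 0.804, 10.1 ± 0.964 and 12.6 ± 0.902 CPM, each without overlap between any pair. Rbfox1 and Msi1 therefore ran in opposite orders across the experiments. Medium spiny neuron markers in the same input libraries summed to means of 6499, 4139 and 2501 CPM. Ptbp1 and Ptbp3 overlapped among all control groups in both fractions. Genotype, run and experiment cannot be told apart here.

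The order of the 6 conditions in IP placed Ptbp1 in hM4Di at 107.4 ± 23.9 CPM, then SAPAP3 knockout (42.8 ± 1.32), wild type (40.8 ± 3.71), R6/2 control (38.3 ± 0.383), vehicle (35.9 ± 3.50) and MPTP (33.7 ± 2.37). Neighbours below hM4Di overlapped. Clk1 in IP ran from R6/2 control (64.4) and hM4Di (58.7 ± 3.35), which overlapped, to MPTP (49.98 ± 3.46), wild type (43.7), knockout (40.7 ± 4.94) and vehicle (35.5), of which hM4Di and MPTP did not overlap. Msi2 in IP was highest with vehicle (403.5 ± 13.8 CPM), clear of R6/2 control (324.5 ± 18.3), while neighbours further down overlapped as far as knockout (287.6 ± 28.5). Ptbp3 had group means from 49.0 to 51.8 CPM in IP and from 75.95 to 80.66 CPM in input, all overlapping.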

How the data were processed

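RNA was measured in 48 libraries, IP and input of 24 replicates. The series description gives 24 mice, whereas 25 animal names stand in the titles, so that 1 MPTP pair may not share an animal. The submitters' processing notes name STAR, HTSeq and the mm10 build, without versions or settings. Library preparation used a stranded kit with removal of ribosomal RNA, per the labels' protocols. The authors deposited raw counts per gene and a table of FPKM values, which equal the counts divided by gene length and library total within a relative deviation of 7.86e-07 in 21012 genes.

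Genes kept by filterByExpr with a minimum count of 10 were fitted in edgeR 4.0.16 (R 4.3.3) by the quasi-likelihood test with TMM scaling, with a threshold of 0.05 on Benjamini-Hochberg adjusted values over every gene tested. Intervals are 95%. Each perturbation was fitted on its own 8 libraries, and IP against input and the difference between fractions on the 16 libraries of an experiment. Alternatives were RLE and upper-quartile scaling, no filter, limma-voom and limma 3.58.1 on log2(FPKM + 1), DESeq2 1.42.0, a replicate block, each replicate left out and, added after seeing the data, the control libraries alone. Same-numbered libraries of 2 conditions were not paired, with correlations of their deviations from -0.463 to 0.555, while IP and input of 1 replicate came from the same animal by their titles, apart from that MPTP pair, and correlated at 0.222 to 0.811. Titles name an animal per replicate, except that the name of wild-type replicate 3 may join a pair of mice.

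The members and the gene lists were chosen with earlier results of these data known. All 10 members are named in each comparison. From each related list, up to 4 genes that passed are named (by smallest p), or, for IP against input, genes among the 4 with the largest absolute difference in at least 1 experiment, and for likeness the 5 genes with the highest Pearson's r. The list of medium spiny neuron markers has 9 of its 10 genes in the table. Drd1 was not found under that symbol and is left out of every count of this list. Promoters were taken from a RefSeq table.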

Additional observations from a re-analysis of the deposited data

Results flagged for a closer look

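Of 120 sets of 4 libraries examined, 5 held 1 library that stood apart from the other 3, about as many as chance gives at 1 in 20. Ptbp1 stood at 28.18 CPM in MPTP input replicate 1 (others 22.89 to 23.57) and at 28.21 CPM in R6/2 control-cargo input replicate 4 (others 24.71 to 24.98). Ptbp3 stood at 92.98 CPM in the same MPTP input replicate 1 (others 75.51 to 77.33). Msi2 stood low at 382.9 CPM in vehicle IP replicate 2 (others 408.5 to 412.8), and Qk high at 853.4 CPM in wild-type input replicate 3 (others 725.4 to 744.0).

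The hM4Di difference itself differed between IP and input for 3 genes, by 1.243 on the log2 scale for Ptbp1, by -0.2847 for Ptbp2 and by -0.4508 for Rbfox1. The hM4Di contrast was used to choose the genes, so these values are a description.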

How the results depend on the processing

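The count of the 10 genes past the threshold kept within 1.5 times under every alternative run, with the following exceptions. With DESeq2, 2 genes lay past it in MPTP IP (Clk1 and Msi2) against 0, and 1 in the MPTP difference between fractions (Msi2) against 0. With each library left out in turn, the count ranged from 0 to 2 in MPTP IP, with 2 without vehicle replicate 2, and from 1 to 3 in the R6/2 difference between fractions, with 1 without control-cargo replicate 1 or hM4Di replicate 2. Rbfox1 also lost its call there without hM4Di replicate 4. Ptbp2 in IP against input turned to -0.01889 (SAPAP3) and -0.0873 (R6/2) with limma on log2(FPKM + 1), and fell short of the threshold at 0.05929 and 0.0309 with upper-quartile scaling; the cause was not tested.

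With the replicate block, the counts were 0 in MPTP and SAPAP3, 3 in hM4Di IP and 0 in hM4Di input, and with the animal as block 10 in each IP-to-input contrast, so the block changed no call on these genes. Over all genes, hM4Di IP gave 2227 calls, 3474 with DESeq2 and 892 to 2130 with a library left out, with 892 without control-cargo replicate 1, 1084 without hM4Di replicate 2 and 1409 without control-cargo replicate 4. MPTP IP gave 0 calls, 302 with DESeq2 and 65 without vehicle replicate 2, and MPTP input 0, 65 with DESeq2. SAPAP3 IP gave 4 (8 with DESeq2, 2 with the block, 0 without wild-type replicate 4), SAPAP3 input 1 (8 with DESeq2) and hM4Di input 3 (53 with DESeq2, 6 with the block). The R6/2 difference between fractions gave 492 calls, 1159 with DESeq2, 2761 with the animal as block and 91 to 433 with a library left out (91 and 208 without control-cargo replicates 1 and 3, and 323, 202, 280 and 128 without hM4Di replicates 1 to 4), and the MPTP one 0, 50 with DESeq2. On deposited FPKM in place of CPM, 17 of 20 gene and fraction pairs kept their highest condition. In MPTP IP, 14 genes also passed without MPTP replicate 1 and 1 without MPTP replicate 3. Counting depth was lowest for Msi1 in input, with 147 to 444 reads per library.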
